A study of Mus musculus with 12 samples.

Results

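The elastic fibre genes described here are 10 of the 24421 genes listed in each library. They were chosen by symbol and role, and all 10 were found in all 12 libraries. They encode elastin (*Eln*), the fibrillins and associated proteins of the microfibril (*Fbn1*, *Fbn2*, *Mfap4*, *Mfap5*, *Emilin1*), the fibulins that join elastin to its scaffold (*Fbln5*, *Efemp2*) and the lysyl oxidases that crosslink it (*Lox*, *Loxl1*). All 10 passed the filter on low counts in every comparison.

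The study profiled liver and lung from newborn WT (*Man1a2* +/+) and null (*Man1a2* -/-) mice, with 3 libraries for each genotype and tissue. *Man1a2* encodes a Golgi alpha-mannosidase that trims N-linked glycans. The null allele, Man1a2tm1.1Ahe, is carried in all cells, and pups came from *Man1a2* +/- parents and were sampled within the first hour of life. The allele deletes an early exon of the gene. By RT-qPCR the study found that exon lost in null pups and later exons reduced, significantly in lung but not in liver. No group received a treatment, and each tissue was taken whole, so that fewer cells of a type and less RNA per cell cannot be told apart.

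An elastic fibre is a core of crosslinked elastin laid down on a bundle of fibrillin microfibrils. Fibulins bring soluble tropoelastin and the lysyl oxidases together on that bundle, and the oxidases then link lysines of neighbouring elastin molecules. In the lung these genes are expressed mainly by myofibroblasts, fibroblasts and smooth muscle, and fibres at the tips of growing septa accompany the division of air sacs into alveoli, which in the mouse goes on after birth.

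Libraries held between 26759463 and 42914295 counted reads, so that 3 reads, the floor used here, correspond to 0.0699 to 0.112 CPM before TMM scaling. All levels below are CPM after TMM normalization, a scale on which that floor differs somewhat. *Man1a2* itself stood at 105, 75.5 and 107 CPM in WT lungs 1 to 3 and at 42.7, 49.7 and 50.2 CPM in null lungs 1 to 3. In liver it was 87.0, 54.2 and 68.5 CPM in WT and 53.7, 48.2 and 50.1 CPM in null libraries, so that in either tissue the highest null library was under the lowest WT one. Null lung 1 went against its tissue label. Its 7 lung epithelium markers summed to 537 CPM, against 16516 to 22757 CPM in the other 5 lungs, and *Sftpc*, the surfactant protein of type II cells, was 26.6 CPM, against at least 11900 CPM. The same library held 13257 CPM of cardiac muscle markers (116 to 394 CPM in the other lungs), 9736 CPM of skeletal muscle markers (18.5 to 55.7 CPM), 2220 CPM of squamous epithelium markers (9.81 to 17.7 CPM) and 380 CPM of cartilage markers (0.816 to 4.81 CPM). Null liver 1 kept its hepatocyte markers at 214970 CPM, within the range of the other livers, but held 7820 CPM of skeletal muscle markers and 636 CPM of cartilage markers, where no other liver passed 10.2 and 1.22 CPM. Comparisons were therefore made with and without these libraries.

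**Figure D1:**
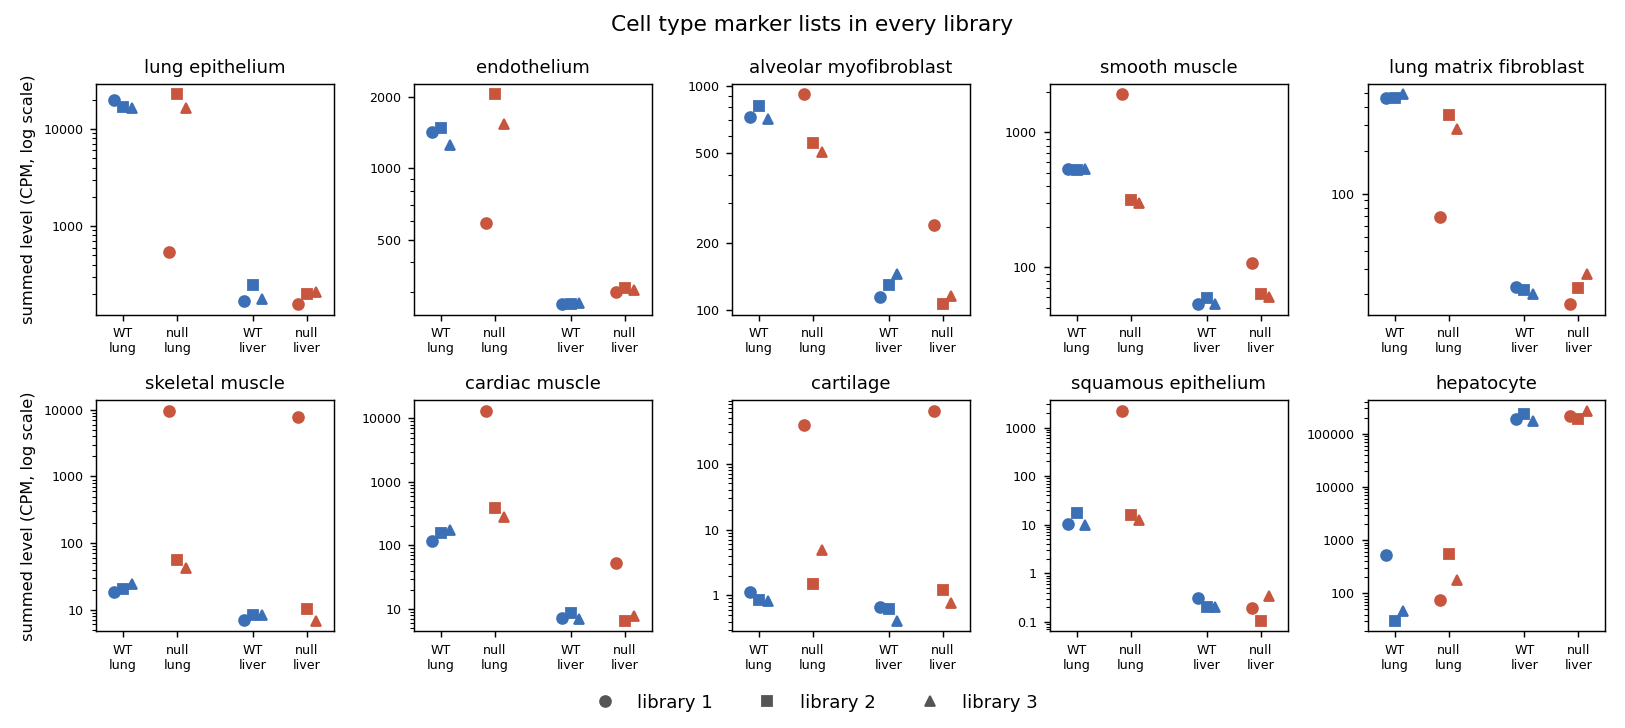
Summed level (CPM, log scale) of 10 lists of cell type markers in each of the 12 libraries; each point is 1 library, its shape gives the library number, and blue and red mark WT and null. Null lung 1 lies apart for lung epithelium (537 CPM) and the muscle, cartilage and squamous lists, and null liver 1 for skeletal muscle (7820 CPM) and cartilage (636 CPM).

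The first comparison asked how the 10 genes were set in the normal newborn lung, with liver as the contrast. In WT lung, elastin and *Mfap4* dominated. Per kilobase of principal transcript, *Eln* stood at 850 ± 93.5 CPM per kb (SD, n = 3) and *Mfap4*, which encodes a fibrinogen-related protein that binds elastin and microfibrils, at 710 ± 44.7 CPM per kb, and the libraries of the pair overlapped. *Lox* followed at 86.6 ± 9.26 CPM per kb and lay apart from both neighbours in the order. *Loxl1* (46.0 ± 4.21 CPM per kb) and *Fbln5* (40.9 ± 6.09 CPM per kb) overlapped, and *Emilin1* came next at 24.5 ± 2.72 CPM per kb. *Efemp2* (13.6 ± 0.799 CPM per kb) and *Fbn1* (13.5 ± 1.35 CPM per kb) overlapped, and *Mfap5* (8.90 ± 1.40 CPM per kb) and *Fbn2* (3.10 ± 0.306 CPM per kb) were lowest. This order depended on the length used. Over all exonic bases of each gene, *Mfap4* (636 ± 40.0 CPM per kb) lay above *Eln* (404 ± 44.5 CPM per kb) without overlap. The mean of *Fbn1* (13.4 CPM per kb) was then above that of *Efemp2* (9.46 CPM per kb). The summed level of the 10 genes was 5186 to 5911 CPM in WT lung and 239 to 272 CPM in WT liver.

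Levels of 9 of the 10 genes were higher in WT lung than in WT liver by edgeR's quasi-likelihood test (adjusted p under 0.05 and at least a 1.2-fold change), where 39.8% of all 15635 genes tested were called higher in lung. The median log2 difference over the 10 was 3.70, against 0.04 over all genes. *Mfap4* differed most on the log2 scale (6.87), followed by *Eln* (5.55), *Mfap5* (4.61), *Lox* (4.28), *Loxl1* (3.73), *Fbln5* (3.67), *Fbn1* (2.73), *Fbn2* (2.53) and *Efemp2* (1.48). *Emilin1*, a glycoprotein at the border of elastin and microfibril, stood at 91.5, 106 and 85.9 CPM in WT lungs and at 75.5, 62.1 and 94.7 CPM in WT livers. These ranges overlapped, and its log2 difference of 0.27 (SE 0.16) did not pass the test (edgeR, adjusted p = 0.139). The call depended on the setting. Without WT liver 3 *Emilin1* was called higher in lung, as all 10 genes were. It became a called difference in the other direction, -0.45, once a trend with GC content and length was removed. In WT liver the order changed, with *Emilin1* (20.1 ± 4.26 CPM per kb) and *Eln* (17.9 ± 1.91 CPM per kb) overlapping at the top. Over all exonic bases they were 15.7 ± 3.32 and 8.53 ± 0.908 CPM per kb and did not overlap.

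Upstream sequence was at hand for 4 of the 10 genes in RefSeq's table for GRCm38.p6, namely *Fbn1*, *Fbln5*, *Efemp2* and *Emilin1*. The 250 bases before the start site are shown for *Fbln5*, which among these 4 differed most between lung and liver, and for *Emilin1*, which did not pass the test. RefSeq's start sites of *Emilin1* and *Fbn1* lie downstream of the GENCODE gene start, so that these windows fall inside the gene coordinates given below. Capitals mark any TATA box (TATAAA), GC box (GGGCGG) or SMAD element (CAGACA), searched on both strands.
Fbln5, chr12:101819120-101819369, minus strand: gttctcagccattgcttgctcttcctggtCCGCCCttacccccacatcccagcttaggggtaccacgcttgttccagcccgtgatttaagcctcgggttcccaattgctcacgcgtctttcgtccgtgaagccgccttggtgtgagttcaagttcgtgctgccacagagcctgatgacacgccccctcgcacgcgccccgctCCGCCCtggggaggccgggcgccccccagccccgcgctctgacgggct
Emilin1, chr5:30913536-30913785, plus strand: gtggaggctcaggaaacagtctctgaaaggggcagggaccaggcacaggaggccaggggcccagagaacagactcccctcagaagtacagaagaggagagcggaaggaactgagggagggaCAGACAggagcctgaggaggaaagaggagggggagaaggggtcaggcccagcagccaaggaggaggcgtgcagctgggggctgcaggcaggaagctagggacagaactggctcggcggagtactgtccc
The *Fbln5* window held 2 GC boxes and 21 CpG dinucleotides at 65.2% GC. The *Emilin1* window held 0 GC boxes, 1 SMAD element and 4 CpG dinucleotides at 63.2% GC. The *Efemp2* window held 2 GC boxes and that of *Fbn1* 1, and none of the 4 windows held a TATA box. Of 32851 windows of this length in the table, 32.7% held a GC box, 17.1% the SMAD element and 12.4% a TATA box.

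The main comparison set null lungs 2 and 3 against the 3 WT lungs, to see whether the genes needed for alveoli were expressed at their normal level. Elastin did not pass the test, while 4 of its partners did. *Mfap4* and *Lox* were higher and *Loxl1* and *Mfap5* were lower, so that 4 of the 10 genes were called, where 37.0% of all 15885 genes were called, 18.0% higher and 19.0% lower. The share among the members is near that background. Null lungs 2 and 3 did not overlap the WT lungs for 5 of the 10 genes, and for 61.6% of all genes tested, so that the separation of a single gene stated below is common in this comparison. The median log2 difference was -0.01 over the 10 genes and -0.01 over all genes.

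*Eln* (chr5:134702593-134747323) was 3547, 3411 and 2866 CPM in WT lungs and 3543 and 2799 CPM in null lungs 2 and 3. The values interleave, with a log2 fold change of -0.05 (SE 0.13; edgeR, adjusted p = 0.775). Null lung 1 stood at 3705 CPM, just above the highest WT library.

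Among the microfibril genes, *Fbn1* (chr2:125300594-125507993), the main fibrillin of mature microfibrils, was 169, 174 and 144 CPM in WT lungs and 225 and 138 CPM in null lungs 2 and 3. Its null libraries straddled the WT range (log2 fold change 0.15, SE 0.19; edgeR, adjusted p = 0.564). *Fbn2* (chr18:58008623-58210487), the fibrillin known for its expression in development, was 30.8, 34.4 and 37.5 CPM in WT and 29.3 and 24.0 CPM in null lungs 2 and 3. Both null values lay below all WT values, but the log2 fold change of -0.37 (SE 0.14) did not pass the threshold (edgeR, adjusted p = 0.0662); with the library number as a replicate block it was -0.45 and did (edgeR, adjusted p = 0.0490).

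*Mfap4* (chr11:61485431-61488900) stood at 1185, 1312 and 1172 CPM in WT lungs and at 1884 and 1791 CPM in null lungs 2 and 3. Both null libraries lay above all WT libraries, a 1.50-fold rise (log2 0.58, SE 0.10; edgeR, adjusted p = 0.00403). *Mfap5* (chr6:122505845-122529290), which encodes a small glycoprotein bound to fibrillin, went the other way. Its level was 14.1, 15.0 and 11.03 CPM in WT lungs and 7.37 and 7.73 CPM in null lungs 2 and 3, with no overlap. The ratio of null to WT was 0.562 (log2 -0.83, SE 0.18; edgeR, adjusted p = 0.0102). *Emilin1* (chr5:30913402-30921277) was 92.5 and 71.2 CPM in null lungs 2 and 3, against 85.9 to 106 CPM in WT, and did not pass the test (log2 -0.22, SE 0.14; edgeR, adjusted p = 0.260).

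Neither fibulin differed by more than the spread between libraries. *Fbln5* (chr12:101746565-101819055), which encodes fibulin-5, was 208, 278 and 230 CPM in WT lungs and 278 and 216 CPM in null lungs 2 and 3. *Efemp2* (chr19:5473954-5482517), which encodes fibulin-4, was 34.1, 38.2 and 35.3 CPM in WT and 39.2 and 37.0 CPM in null lungs 2 and 3. Neither passed the test, with log2 fold changes of 0.04 (SE 0.16; edgeR, adjusted p = 0.856) for *Fbln5* and 0.08 (SE 0.10; edgeR, adjusted p = 0.572) for *Efemp2*.

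The lysyl oxidases moved apart. *Lox* (chr18:52516067-52529867) was 397, 375 and 460 CPM in WT lungs and 601 and 560 CPM in null lungs 2 and 3, and every null value was above every WT value. It was 1.41-fold higher (log2 0.49, SE 0.12; edgeR, adjusted p = 0.0144), a call lost without WT lung 2 (edgeR, adjusted p = 0.0564). *Loxl1* (chr9:58287738-58313186), the family member that localises to elastic fibres, was 143, 168 and 145 CPM in WT lungs and 74.2 and 74.0 CPM in null lungs 2 and 3. It showed the largest change of the 10, to 0.487 of the WT level (log2 -1.04, SE 0.11; edgeR, adjusted p = 0.00107).

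Exact permutation tests of the single genes cannot fall below p = 0.1 with 2 libraries against 3, two-sided, and gave that p for *Mfap4*, *Mfap5*, *Lox* and *Loxl1*. All 4 calls were kept with DESeq2, which called 32.8% of 19662 genes. In 1 fit over 11 libraries, which left out null lung 1 but kept null liver 1, 0 of 10 were called by edgeR, against 30.3% of 16257 genes. In that fit an unadjusted p under 0.05 was found for 1 of 10 and for 6783 of all genes (edgeR). Without null liver 1 as well, a setting chosen after seeing the data, that fit called *Mfap4*, *Lox* and *Loxl1* but not *Mfap5* (edgeR, adjusted p = 0.104). It called 35.1% of 16216 genes.

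**Figure D2:**
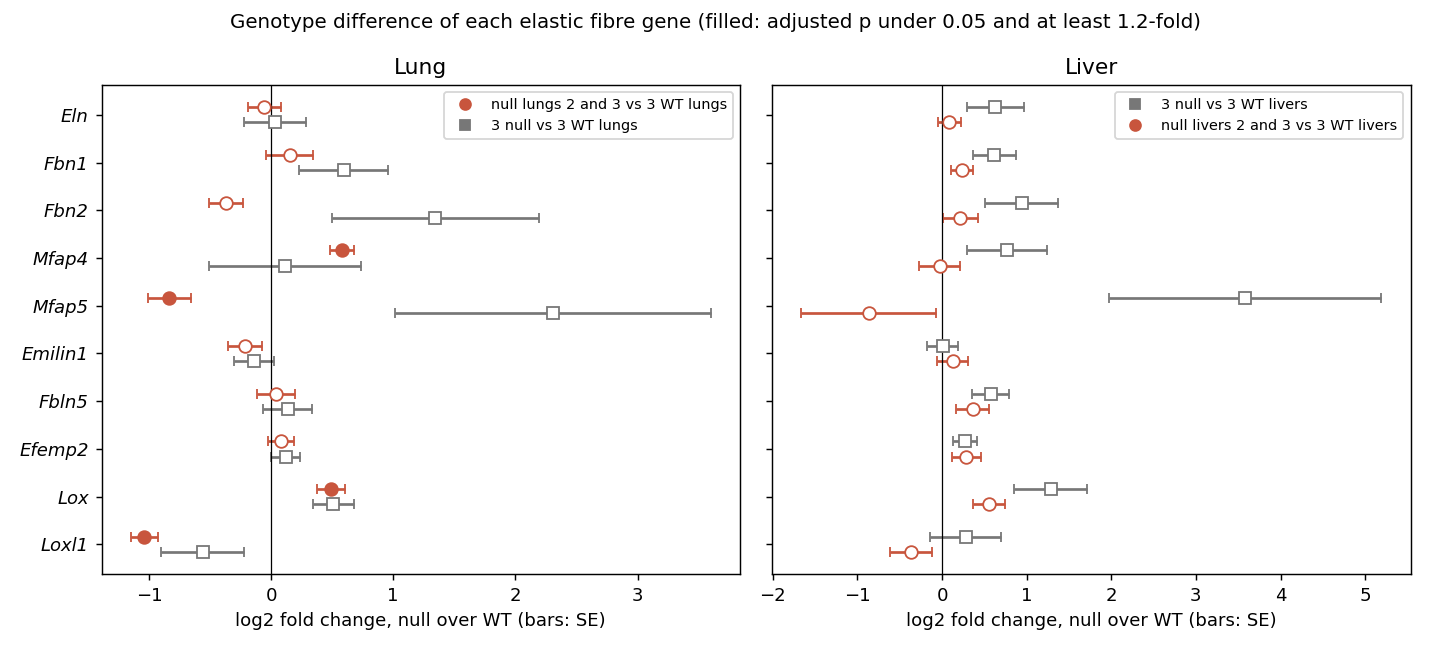
Log2 fold change of null over WT for each of the 10 genes in lung (left) and liver (right); points are edgeR estimates, bars are 1 SE, and filled points passed an adjusted p of 0.05 with at least a 1.2-fold change. In lung, *Mfap4* and *Lox* lie above 0 and *Mfap5* and *Loxl1* below 0 when null lung 1 is left out (red), and no gene is filled with all 6 lungs (grey) or in liver.

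Null lungs 2 and 3 also differed from WT lungs in markers of the cells that make elastic fibres. Of all genes tested in this comparison, 18.0% were called higher and 19.0% lower. Smooth muscle markers were called lower for 4 of 6 genes, their sum being 298 to 318 CPM against 530 to 537 CPM in WT. Lung matrix fibroblast markers were lower for 3 of 5 genes (283 to 356 CPM against 461 to 495 CPM). Alveolar myofibroblast markers were lower for 3 and higher for 1 of 6 genes (505 to 554 CPM against 710 to 810 CPM). The lower sum came mostly from *Tgfbi*, at 156 and 157 CPM against 383 to 468 CPM, while *Pdgfra* was 158 and 154 CPM against 91.4 to 110 CPM. Skeletal muscle markers were higher for 4 of 6 genes (42.8 to 55.7 CPM against 18.5 to 24.3 CPM) and cardiac muscle markers for 4 of 5 (280 to 394 CPM against 116 to 177 CPM). Endothelium markers were higher for 2 of 5 genes and lower for 0 (1545 to 2060 CPM against 1252 to 1480 CPM). No marker of these lists was at 0 in any lung. The part of these cells in the differences of *Mfap4*, *Mfap5*, *Lox* and *Loxl1* was not tested.

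With all 6 lungs, 0 of the 10 genes were called by edgeR, against 0.327% of all 15591 genes tested. By edgeR 1 of the 10 had an unadjusted p under 0.05, against 25.0% of all genes. DESeq2 also called 1 of the 10, against 11.8% of 20021 genes. *Lox* was that gene: null lung 1, at 592 CPM, also lay above all WT lungs, and the 3 null lungs together were 1.42-fold higher (log2 0.51, SE 0.17; edgeR, adjusted p = 0.145). *Lox* was also the only one of the 10 genes whose 3 null lungs did not overlap the 3 WT lungs. Groups did not overlap for 36.0% of all genes tested.

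Null lung 1, described apart, had another makeup of elastic fibre transcripts. *Mfap5* was 182 CPM there, against 7.37 to 15.0 CPM in the other 5 lungs, *Fbn2* was 205 CPM, against 24.0 to 37.5 CPM, and *Fbn1* was 369 CPM, against 138 to 225 CPM. *Mfap4* was low, at 309 CPM against at least 1172 CPM. By contrast *Loxl1*, at 159 CPM, and *Emilin1*, at 92.8 CPM, fell within the WT range. *Fbln5* was 291 CPM and *Efemp2* 40.6 CPM, both just above their highest WT library. Of the summed per-kilobase level of the 10 genes, *Mfap4* made up 11.4% in null lung 1 and 37.5% to 40.9% in WT lungs, and *Mfap5* made up 7.67% and 0.440% to 0.527%. The same library held the muscle, cartilage and squamous transcripts given above, and their part in these levels was not tested.

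**Figure D3:**
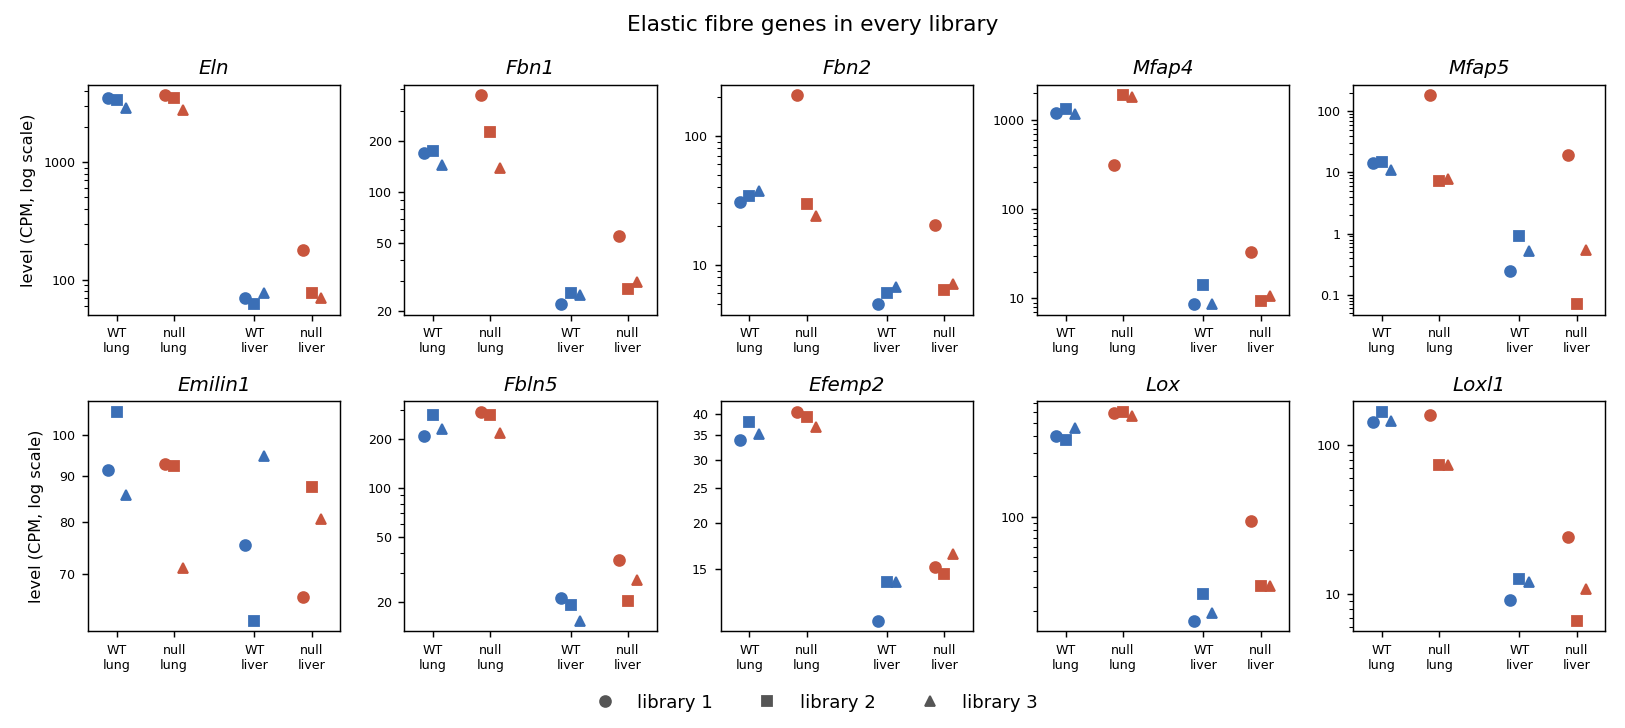
Level (CPM, log scale, a separate scale in each panel) of the 10 elastic fibre genes in every library; each point is 1 library, its shape gives the library number, and blue and red mark WT and null. Null lung 1 is far above the other lungs for *Fbn2* (205 CPM) and *Mfap5* (182 CPM) and far below them for *Mfap4* (309 CPM), and null liver 1 is the highest liver for 8 of the 10 genes.

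In liver, the corresponding comparison called 0 of the 10 genes by edgeR, where 26.9% of all 14343 genes were called. An unadjusted p under 0.05 was found for 3 of 10 (*Fbn1*, *Fbln5* and *Lox*), against 41.4% of all genes (edgeR). DESeq2 called 1, *Fbln5* (adjusted p = 0.0448), against 23.7% of 19130 genes. All 10 log2 fold changes were above 0, with a median of 0.62 against 0.02 over all genes. The size of these values depended on null liver 1. Without it, 0 of 10 were called, against 23.8% of all 14501 genes (edgeR). An unadjusted p under 0.05 was found for 1 of 10 and for 5618 of all genes (edgeR). The median over the 10 fell to 0.17, and 7 of 10 stayed above 0.

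*Eln* was 69.7, 61.4 and 76.1 CPM in WT livers and 177, 76.3 and 69.6 CPM in null livers, so that null liver 1 alone stood out. *Mfap5* was counted with 7, 22 and 15 reads in WT livers and with 515, 2 and 13 reads in null livers 1 to 3. Outside null liver 1 it thus rested on 2 to 22 reads, against a floor of 3, and no change was detectable at this depth. *Mfap4* (33.1 CPM against 8.58 to 14.1 CPM in the other 5 livers), *Fbn2* (20.5 CPM against 4.92 to 7.14 CPM) and *Loxl1* (24.1 CPM against 6.64 to 12.8 CPM) likewise were highest in null liver 1. That library's skeletal muscle and cartilage markers are given above, and their part in these levels was not tested.

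*Lox* was 16.9, 26.9 and 19.3 CPM in WT livers and 92.9, 30.8 and 30.6 CPM in null livers, so that the groups did not overlap, as for 46.6% of all genes tested. The log2 fold change of 1.28 (SE 0.43) missed the threshold (edgeR, adjusted p = 0.0627), and without null liver 1 it was 0.56 (SE 0.19; edgeR, adjusted p = 0.0621). *Fbn1* was 22.0, 25.7 and 24.8 CPM in WT and 55.2, 27.0 and 29.6 CPM in null livers. *Efemp2* was 10.8, 13.8 and 13.8 CPM in WT and 15.2, 14.5 and 16.5 CPM in null livers. For both, every null value lay above every WT value, and neither passed the test (edgeR, adjusted p = 0.108 and 0.197). *Emilin1* ranged from 62.1 to 94.7 CPM in WT and from 66.0 to 87.4 CPM in null livers, and *Fbln5* from 15.4 to 21.1 CPM in WT and from 20.2 to 36.0 CPM in null livers.

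Whether the genotype difference itself differed between lung and liver was tested as an interaction over all 12 libraries. None of the 10 genes passed, where 0.371% of all 16155 genes did, and none had an unadjusted p under 0.05, as 13.9% of all genes had (edgeR). DESeq2 also called 0, against 2.99% of 20414 genes. With the library number as a replicate block, 0 of 10 and 0 of all genes were called by edgeR. An unadjusted p under 0.05 was then found for 1 of 10 and for 2224 of all genes (edgeR). With null lung 1 and null liver 1 both left out, a setting chosen after seeing the data, 0 of 10 were called by edgeR with and without the block. Of all 16216 genes, 6.13% were called with the block and 5.18% without it. In each case 2 of 10 had an unadjusted p under 0.05, as had 3667 of all genes with the block and 3355 without it (edgeR). The differences of *Mfap4* and *Loxl1* in lung were therefore not shown to be particular to lung.

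The balance of related members within a library does not depend on scaling, and a pair of ratios, chosen after their values were seen, are given without a test. The ratio of *Lox* to *Loxl1* per kilobase was 1.94, 1.56 and 2.21 in WT lungs and 2.59, 5.63 and 5.26 in null lungs 1 to 3. In liver it was 1.29, 1.47 and 1.10 in WT and 2.68, 3.22 and 1.95 in null libraries. In both tissues, and in the libraries that stand apart, every null value was above every WT value, which also held for *Lox* alone. Among single genes, the 3 null and 3 WT libraries did not overlap for 36.0% of those tested in lung and 46.6% in liver. The ratio of *Mfap4* to *Mfap5* was 73.3, 76.3 and 93.0 in WT lungs, 223 and 203 in null lungs 2 and 3, and 1.49 in null lung 1. In liver it was 30.6, 13.6 and 14.6 in WT and 1.49, 118.5 and 17.2 in null libraries, on few reads of *Mfap5* outside null liver 1, and the groups overlapped. The ratio of *Eln* to *Fbn1*, for comparison, was 60.9 to 65.3 in WT lungs and 48.8 and 63.1 in null lungs 2 and 3, and 31.2 in null lung 1.

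**Figure D4:**
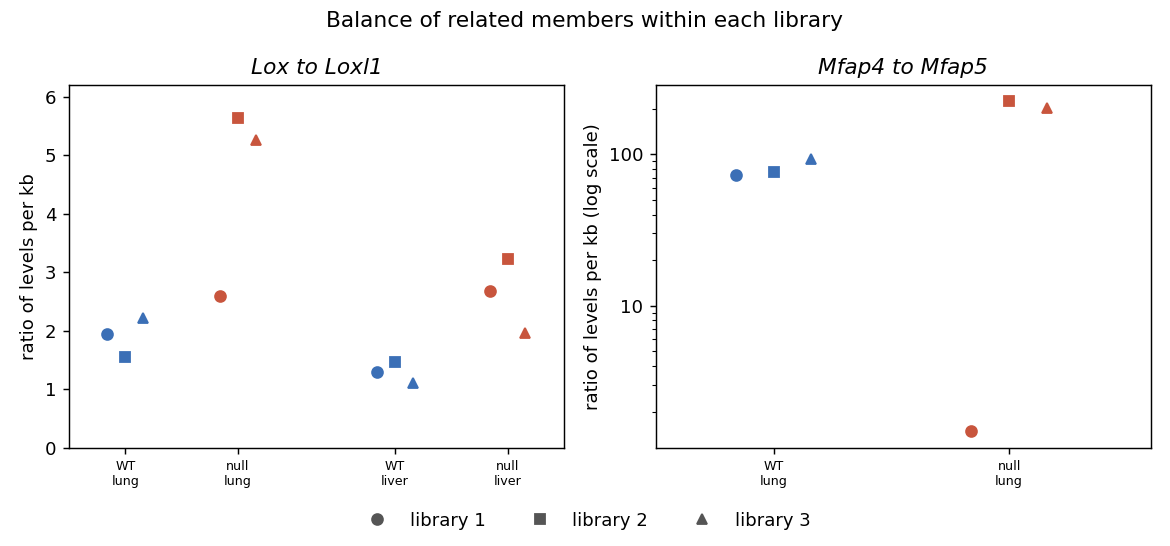
Ratio of the levels per kilobase of *Lox* to *Loxl1* in all 12 libraries (left, linear axis) and of *Mfap4* to *Mfap5* in the 6 lungs (right, log axis); each point is 1 library, its shape gives the library number, and blue and red mark WT and null. The *Lox* to *Loxl1* ratio is highest in null lungs 2 and 3 (5.63 and 5.26) and at most 2.21 in WT libraries.

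Beyond the 10 genes, 46 further genes of elastic fibre biology were followed, all tested in lung. Between null lungs 2 and 3 and WT lungs, 16 of 46 were called, 8 higher and 8 lower, near the background of 37.0%. That count was 9 without WT lung 3, where 21.9% of all genes were called, and 9 in the fit over 11 libraries, where 30.3% were. With all 6 lungs 0 of 46 were called by edgeR, against 0.327% of all genes. At an unadjusted p under 0.05 there were 8, against 25.0% of all genes (edgeR). DESeq2 called 4 of 46, against 11.8% of all genes. Of 3 other lysyl oxidases, 2 were lower. The one with the smallest p, *Loxl2*, was 114, 126 and 101 CPM in WT lungs and 61.8 and 55.3 CPM in null lungs 2 and 3 (log2 -0.96, SE 0.12; edgeR, adjusted p = 0.00161). *Lox* was thus higher where *Loxl1* and 2 of the other 3 oxidases were lower.

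Of 5 other microfibril genes, *Mfap2* and 4 latent TGF-beta binding protein (LTBP) genes, 1 was higher and 1 lower, and *Ltbp3* was 137, 143 and 119 CPM in WT lungs and 196 and 204 CPM in null lungs 2 and 3 (log2 0.58, SE 0.11; edgeR, adjusted p = 0.00674). Of 4 other fibulins, 1 was higher and 1 lower, and *Fbln2* was 56.7, 61.4 and 50.2 CPM in WT lungs and 30.5 and 31.7 CPM in null lungs 2 and 3 (log2 -0.86, SE 0.12; edgeR, adjusted p = 0.00226). Of 8 ADAMTS and ADAMTS-like genes, 2 were higher and 1 lower, and *Adamts17* was 82.4, 77.7 and 65.4 CPM in WT and 184 and 129 CPM in null lungs 2 and 3 (log2 1.05, SE 0.16; edgeR, adjusted p = 0.00300). In each of these 3 genes the null and WT libraries did not overlap, as for 61.6% of all genes.

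Of 9 elastases and inhibitors, 2 were higher and 2 lower, and *Mmp2*, a gelatinase that can cleave elastin, rose by 0.60 on the log2 scale (SE 0.12). Of these calls, *Elane* (higher) and *Mmp12* (lower) lay near the floor. *Elane* was 0.110 to 0.287 CPM in WT lungs and 0.485 to 0.756 CPM in null lungs 2 and 3. *Mmp12* was 0.341 to 1.04 CPM in WT lungs and 0.111 to 0.283 CPM in null lungs 2 and 3. Of 7 receptors, 1 was lower, *Itgb3*, a subunit of the integrin that binds RGD motifs of the fibre, by a log2 of -0.77 (SE 0.13). *Emilin2* was the 1 of 4 EMILIN and multimerin genes called (log2 0.43, SE 0.13). Its log2 fold change was 0.30 to 0.56 when 1 library was left out, and the call was not kept in every fit without a WT lung. Among 6 genes of copper supply and pro-enzyme processing, *Fn1*, which encodes fibronectin, was the 1 called (log2 0.65, SE 0.17). Its log2 fold change was 0.32 to 0.94 when 1 library was left out. In null lung 1 *Fn1* was 752 CPM, below every WT lung (1167 to 1360 CPM).

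In liver, 10 of the 43 wider genes tested were called, 8 higher and 2 lower, against 26.9% of all genes. The count was 5 without null liver 1, against 23.8% of all genes, and 2 without WT liver 1, against 14.8%. It was 3 without WT liver 2 (15.6% of all genes), 3 without WT liver 3 (11.3%) and 2 in 1 fit over 12 libraries (11.9%). *Adamts6* was 2.85, 2.19 and 3.04 CPM in WT livers and 8.18, 8.07 and 11.2 CPM in null livers, higher in all 3 (log2 1.76, SE 0.23; edgeR, adjusted p = 0.00353). *Fn1*, which hepatocytes secrete in quantity, was 3982, 3735 and 3837 CPM in WT and 6432, 5450 and 10091 CPM in null livers (log2 0.93, SE 0.23; edgeR, adjusted p = 0.0224). *Mmrn1* (0.83), *Loxl3* (0.92), *Elane* (0.67) and *Itgb1* (0.38) were also higher on the log2 scale, and of these *Elane* was still called without null liver 1. Of 6 fits with 1 library left out, *Adamts6* was called in 6, *Elane* in 4, *Fn1* in 3 and *Mmrn1* in 2. *Loxl3* was called in 1 of them and *Itgb1* in 0. *Ltbp4* (0.44) and *Fbln7* (1.19) had the smallest p of their roles and did not pass. Between WT lung and WT liver, 35 of 46 were higher in lung and 6 lower, against 39.8% and 37.2% of all genes.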

How the data were processed

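Liver and lung libraries were mapped to genotype, tissue and number by their labels, and 12 were analysed. The authors made stranded polyadenylated libraries, sequenced them as pairs and deposited raw counts per gene symbol. The labels' processing notes name FastQC, STAR 2.5.2a, DESeq2 and mm10. The counter and its strand setting are not given in the sources used here, so that reads of *Eln*, *Fbn1*, *Fbn2*, *Mfap4*, *Efemp2* and *Lox*, which overlap genes on the opposite strand, may be shared.

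Counts were tested with edgeR 4.0.16 in R 4.3.3 (filterByExpr, TMM, quasi-likelihood test, Benjamini-Hochberg adjustment over all genes tested); a call required an adjusted p under 0.05 and a 1.2-fold change, the thresholds of the study's methods. DESeq2 1.42.0 was an alternative. Levels are CPM on 1 TMM scale over 12 libraries, divided for comparison between genes by the length of the longest principal transcript in GENCODE M21. The scripts were tested on simulated data. Coordinates are those of GENCODE M21 (GRCm38). Promoter windows came from RefSeq, using the entry nearest the gene's start.

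The members, the wider list and the markers were chosen with earlier results of these data known. Genes named were all members, *Man1a2* and, from each role of the wider list the gene with the smallest p in null lungs 2 and 3 and in liver; the genes most like *Eln* in pattern, also part of that rule, are not reported here. Same-numbered liver and lung libraries deviated together (all 6 correlations 0.18 to 0.47), while WT and null libraries of 1 number did not (-0.04 to 0.14). The main tests, also those between tissues, were unpaired. Library numbers entered only through the replicate block, an alternative setting. The closest libraries still differed beyond sampling noise (chi-square per gene at least 14.7). The labels do not say that libraries of a group came from separate litters, so p-values measure the spread between these samples, and floors cover counting error only.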

Additional observations from a re-analysis of the deposited data

How the results depend on the processing

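Percentages in this paragraph are the shares of all genes called in the same setting. Of the 10 genes, 4 were called in null lungs 2 and 3 (37.0%). The count was 4, 3 and 4 without WT lung 1, 2 and 3 (29.1%, 25.6% and 21.9%). It was 5 with a GC and length trend removed (38.3%) or with the replicate block (35.9%), and 0 in 1 fit over 11 libraries (30.3%). The wider list gave 16 calls in null lungs 2 and 3, 9 over 11 libraries, and 15, 11 and 9 without WT lung 1, 2 and 3. With all 6 lungs, the members gave 0 calls (0.327%) and 1 with DESeq2 (11.8%). They gave 4 without null lung 1 (37.0%) and 0 with any other library left out (0%). The wider list gave 0, 4 with DESeq2 and 1 over 12 libraries (14.1%). It gave 16 without null lung 1 and 0 with any other library left out. In liver, the members gave 0 calls (26.9%), 1 with DESeq2 (23.7%) and 0 to 2 when 1 library was left out. The latter were *Fbln5* and *Lox* without null liver 2 (23.3%) and *Lox* without null liver 3 (21.8%). The wider list gave 10 in liver and 2 over 12 libraries (11.9%). It gave 2, 3 and 3 without WT livers 1, 2 and 3 (14.8%, 15.6% and 11.3%). Without null livers 1, 2 and 3 it gave 5, 8 and 6 (23.8%, 23.3% and 21.8%). For the interaction the wider list gave 0 (0.371%), 2 with DESeq2 (2.99%) and 1 with a minimum of 10 counts (0.72%). It gave 0 to 3 when 1 library was left out (0% to 5%). Without null lung 1 and null liver 1 it gave 3 (5.18%), or 4 with the replicate block (6.13%). WT and null libraries share only a number: the replicate block changed 1 member call within a tissue, that of *Fbn2*, and no member call between tissues.

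Values that changed sign were the following, on the log2 scale. In all 6 lungs, *Mfap4* was -0.22 with the replicate block. In null lungs 2 and 3, *Loxl3* (-0.01 as reported) was 0.013 with DESeq2 and with its size factors, 0.077 without the GC and length trend, 0.0064 with the block, 0.0050 with 11 libraries and 0.0063 with 10, and *Fbln5* was -0.054 with the block. In liver, *Emilin1* was -0.021 with a minimum of 10 counts. For the interaction, *Fbn1* was 0.0044 with DESeq2, 0.0094 with its size factors and 0.21 without the trend, *Fbn2* was -0.12 with the block, and without null lung 1 and null liver 1 *Fbn2* was -0.58, *Mfap4* 0.62 and *Mfap5* 0.056, or -0.59, 0.58 and 0.070 with the block. *Emilin1* between WT tissues was -0.45 without the trend. Leaving out 1 library at a time, ranges that crossed 0 were, with all 6 lungs, -0.056 to 0.14 for *Eln*, -0.37 to 1.77 for *Fbn2*, -0.83 to 2.83 for *Mfap5* and -0.21 to 0.58 for *Mfap4*. In null lungs 2 and 3 they were -0.21 to 0.11 for *Eln*, -0.22 to 0.47 for *Fbn1*, -0.13 to 0.22 for *Fbln5*, -0.15 to 0.15 for *Loxl3*, -0.73 to 0.23 for *Adamts6* and -0.019 to 0.11 for *Itgb1*. In liver they were -0.14 to 0.18 for *Emilin1*, -0.028 to 1.05 for *Mfap4*, -0.87 to 4.14 for *Mfap5*, -0.37 to 0.60 for *Loxl1* and -0.38 to 0.71 for *Fbln2*, the last 4 below 0 without null liver 1. For the interaction they were -0.43 to 0.36 for *Fbn1*, -1.28 to 1.12 for *Fbn2*, -0.96 to 0.16 for *Mfap4* and -4.38 to 3.17 for *Mfap5*. The cause of these changes was not tested.

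Permutation tests cannot pass 0.05 at this sample size, and *Mfap5* in liver rested on few reads.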
